A study of Homo sapiens with 6 samples.

Results

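The genes described here encode 55 ATPases and subunits of the 4 families of ATP-dependent chromatin remodelling complexes, chosen by a list of gene symbols matched to the gene IDs of the expression tables through GENCODE release 29. All 55 of the 55 listed genes were found among 58780 annotated genes, and all 55 were among the 19725 genes that passed the filter on low counts. The list holds 24 SWI/SNF genes, 7 ISWI genes, 15 CHD and NuRD genes and 9 INO80 and SRCAP genes. RNA was measured in HCT116, an established human colorectal carcinoma cell line, in 3 libraries of cells labelled 16h Auxin and 3 libraries labelled DMSO control. Auxin is a plant hormone used in engineered cells to degrade a protein that carries a degron tag, and DMSO is its solvent. The labels name neither a tagged protein, nor a degron allele, nor a clone, so the depletion itself could not be checked. Each group has biological replicates 1 to 3, with 1 technical replicate each.

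Remodelling complexes use ATP to slide, evict or exchange nucleosomes. SWI/SNF (BAF) complexes open promoters and enhancers, ISWI complexes space nucleosomes, the CHD family includes the ATPases of NuRD, which joins remodelling to histone deacetylation, and INO80 and SRCAP complexes handle the histone variant H2A.Z. Many subunit positions can be filled by alternative paralogs, so the composition of a complex depends on which paralog a cell expresses, and several SWI/SNF genes, ARID1A and SMARCA4 among them, are recurrently mutated in carcinomas.

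Libraries held 234037969 to 625895062 expected counts, with the largest total in replicate 1 of each condition. Replicate 1 also stood apart on the second principal component, which held 14.5% of the variance. TPM, an abundance scaled by transcript length, was highest in replicate 1 of both groups for 47 of the 55 genes. The epithelial markers EPCAM (213 to 298 TPM), KRT8, KRT18 and CDH1 were expressed in all 6 libraries. Other markers of colorectal epithelium were low or near absent, CDX2 at 2.03 to 4.69 TPM, KRT20 at 0.68 to 1.18 TPM, and VIL1 and LGR5 at or under 0.02 TPM. The blood markers PTPRC and CD3E were at 0. COL1A1, a fibroblast marker, was at 0.54 to 2.61 TPM. In bulk RNA, fewer cells of a kind and less RNA per cell cannot be told apart.

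After auxin, 34 of the 55 genes differed from DMSO with an adjusted p under 0.05 (edgeR quasi-likelihood test, Benjamini-Hochberg over all genes tested, as for every gene-level adjusted p below). Of these, 14 were higher and 20 were lower. Among all 19725 genes tested, 52.3% differed by the same rule, 25.4% higher and 26.9% lower, so the share of members that were higher (25.5%) was near that of all genes, and the share lower was 36.4%. The median log2 fold change was -0.13 over the members and 0.02 over all genes tested. All decreases of at least 2-fold fell on 8 genes, SMARCC2, SMARCD2, MTA1, DPF1, CHD8, BAZ2A, EP400 and SMARCD3. That is 14.5% of the members, against 13.3% of all genes. No member rose by 2-fold, while 6.55% of all genes did. Scaled read abundances (CPM, not corrected for gene length) did not overlap between the groups for 34 members, or 61.8%, against 60.3% of all genes.

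**Figure D1:**
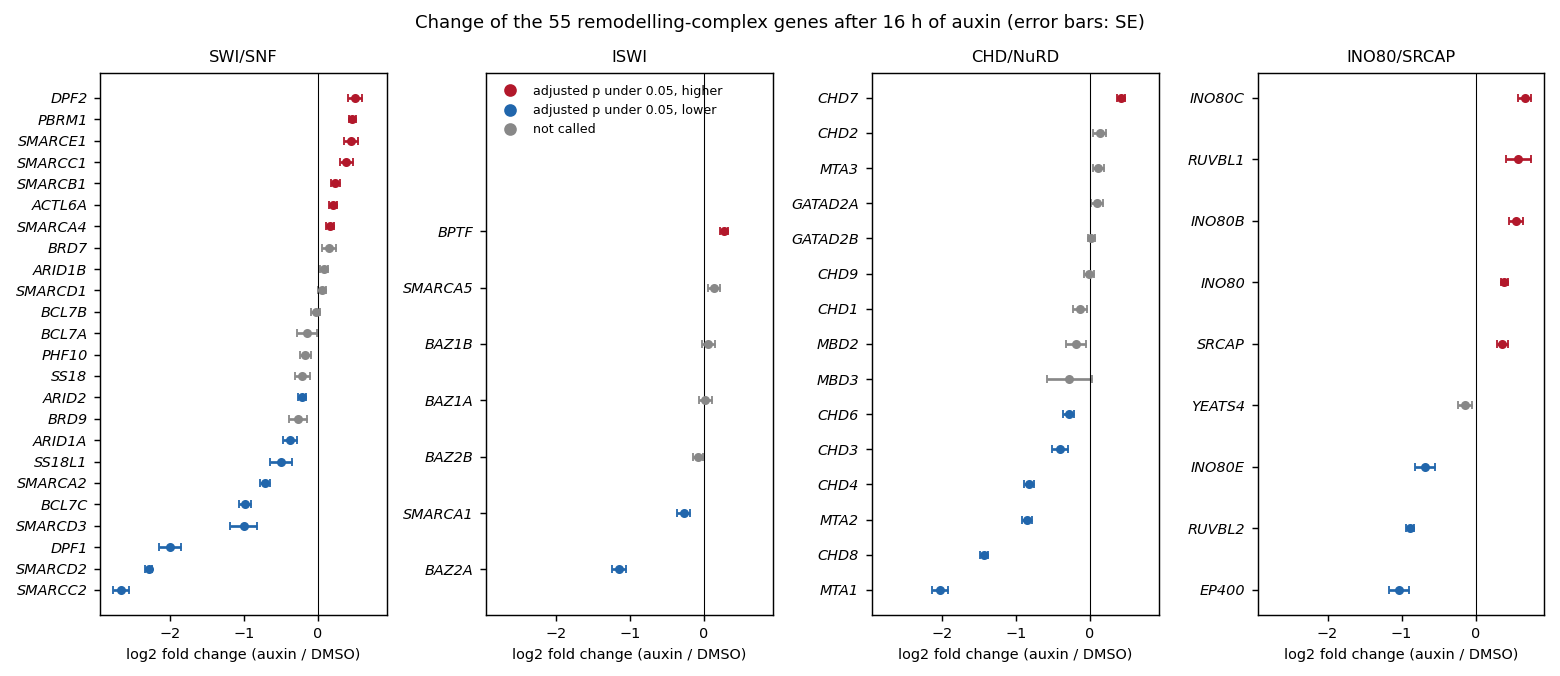
Log2 fold change of each member after auxin relative to DMSO, on the horizontal axis, with its standard error, by complex family; red and blue points are genes called higher and lower, grey points are not called. SMARCC2 (-2.66), SMARCD2 (-2.29) and MTA1 (-2.02) lie farthest to the left with DPF1, and no gene reaches 1 on the positive side.

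The split between directions depended on the scaling of the libraries. Upper-quartile factors, which moved the median of all genes by 0.12 on the log2 scale, gave 21 members higher and 15 lower, with 33.1% and 22.4% of all genes. Scaling to library size alone gave 10 higher and 25 lower, with 19.7% and 28.5% of all genes. The direction of no called member turned under any of the alternatives tried. With the replicate number as a block, 20 members were higher and 28 lower, while the calls over all genes went up to 35.5% and 34.4%. With replicates 2 and 3 alone, 15 were higher and 27 lower, with 30.2% and 31.8% of the 19556 genes tested. All 34 calls were also made in both of these fits. A limma fit on log2(TPM + 0.1) called 13 of the 34, 1 higher and 12 lower, while the calls over all genes went down to 5.16% and 16.3%. SMARCD3 missed the threshold in that fit (limma, adjusted p = 0.0549), and BAZ2A, EP400 and SMARCA2, called in it, missed it on log2(TPM + 1) (limma, adjusted p = 0.0525, 0.0656 and 0.0562). The calls of ARID1A, ARID2, CHD6, SMARCA1 and SS18L1 were lost with upper-quartile factors, which added SMARCD1, ARID1B, BRD7, SMARCA5, CHD2, MTA3 and GATAD2B as higher. The calls of ACTL6A, SMARCA4, SMARCB1 and SRCAP were lost with library size alone, which added SS18, PHF10, CHD1, MBD2 and YEATS4 as lower.

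SWI/SNF genes encode the ATPases SMARCA4 and SMARCA2 and other subunits, grouped here as core or under canonical BAF, PBAF or non-canonical BAF. This grouping does not mean that a core subunit is in every form, or that another subunit is confined to 1 form. Of the 24, 7 were higher, 9 lower and 8 not called. That is 29.2% and 37.5%, against 25.4% and 26.9% of all genes tested. The median log2 fold change was -0.16, against 0.02 over all genes tested. The largest decreases lay in core scaffold subunits. SMARCC2, which forms the dimeric core scaffold with its paralog SMARCC1, is at chr12:56162983-56189567 (ENSG00000139613.11). It measured 98.4, 89.8 and 89.9 CPM in DMSO replicates 1 to 3 and 17.1, 13.4 and 13.6 CPM in auxin replicates 1 to 3. The groups lay far apart, and expression was 6.31-fold lower (log2 fold change -2.66, SE 0.11, adjusted p = 4.37e-06). SMARCC1 (chr3:47585272-47782106, ENSG00000173473.10) had the highest TPM of the family, with a mean of 144 over the 6 libraries. Of that TPM, 66.6% in DMSO and 66.0% in auxin lay in processed transcripts, which carry no coding sequence in the annotation. Coding forms held 32.9% and 33.3%, and the form with the highest TPM has 412 bases. SMARCC1 measured 315, 349 and 366 CPM in DMSO and 404, 464 and 470.5 CPM in auxin. Every auxin library was above every DMSO library (log2 fold change 0.38, SE 0.09, adjusted p = 0.00913). On log2(TPM + 0.1), the SMARCC1 difference missed the threshold (limma, adjusted p = 0.263, with 7.47e-06 to 0.263 over all alternatives).

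SMARCD2, another core subunit, is at chr17:63832081-63843065 (ENSG00000108604.15). Its CPM values were 84.7, 85.3 and 83.6 in DMSO and 16.9, 17.6 and 17.4 in auxin. Replicates were tight in both groups, and expression was 4.89-fold lower (log2 fold change -2.29, SE 0.05, adjusted p = 1.39e-06). Its paralog SMARCD3 (chr7:151238764-151277896, ENSG00000082014.16) measured 21.3, 17.1 and 16.1 CPM in DMSO and 11.4, 7.35 and 8.37 CPM in auxin. The groups did not overlap, although replicate 1 was the highest of each (log2 fold change -1.01, SE 0.18, adjusted p = 0.00304). The third paralog, SMARCD1, was not called (log2 fold change 0.05, SE 0.05; called higher with upper-quartile factors, adjusted p = 0.0231). DPF1, a BAF subunit best known from neurons, is at chr19:38211006-38229714 (ENSG00000011332.19) and had the lowest mean TPM of all members, 1.61. It measured 3.95, 2.90 and 3.58 CPM in DMSO. It measured 0.928, 0.845 and 0.826 CPM in auxin, 4.01-fold lower (SE of the log2 fold change 0.15, adjusted p = 4.64e-05). Its broadly expressed paralog DPF2 rose by 0.50 on the log2 scale (SE 0.09, adjusted p = 0.00336).

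Among the other core genes, SMARCB1, SMARCE1 and ACTL6A rose, with log2 fold changes of 0.20 to 0.45. The SMARCB1 call was lost without auxin replicate 2 or 3 or DMSO replicate 1 or 2 (adjusted p up to 0.0584), and the ACTL6A call without auxin replicate 3 or DMSO replicate 1 or 2 (up to 0.0644). BCL7C fell by 0.99 (SE 0.09), just under the 2-fold line, while BCL7A and BCL7B were not called. The ATPases differed in direction, SMARCA4 at 0.16 (SE 0.05, adjusted p = 0.0383) and SMARCA2 at -0.71 (SE 0.07, adjusted p = 0.000145). The SMARCA4 call was lost when any single library was left out (adjusted p from 0.0616 to 0.208; 0.000879 to 0.485 over all alternatives). Of the subunits grouped here under canonical BAF, ARID1A fell by 0.38 (SE 0.10) and SS18L1 by 0.50 (SE 0.15), and ARID1B and SS18 were not called. The ARID1A call was lost without auxin replicate 2 (adjusted p = 0.0516) and the SS18L1 call without auxin replicate 2 or 3 or DMSO replicate 1 or 2 (up to 0.0916). Of the PBAF subunits, PBRM1 rose by 0.46 (SE 0.05, adjusted p = 0.000259) and ARID2 fell by 0.21 (SE 0.05), while BRD7 and PHF10 were not called. BRD9, of non-canonical BAF, was not called either (log2 fold change -0.27, SE 0.12). With the replicate block, ARID1B (adjusted p = 0.0377) and BRD7 (0.00147) were called higher, and BCL7A (0.00617), SS18 (0.000174), PHF10 (0.00263) and BRD9 (0.00129) lower.

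**Figure D2:**
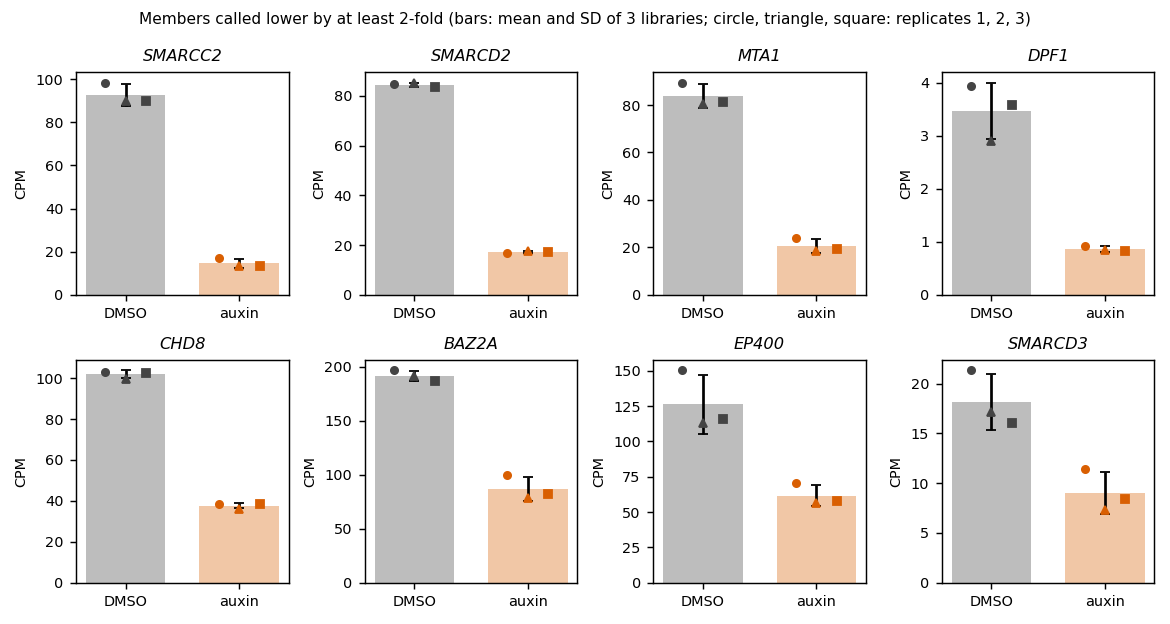
CPM of the 8 members that were lower by at least 2-fold; bars and error bars are the mean and SD of 3 libraries, and symbols are replicates. In each panel the auxin libraries lie below all DMSO libraries, from 13.4 to 17.1 CPM against 89.8 to 98.4 CPM for SMARCC2.

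ISWI genes encode the ATPases SMARCA5 and SMARCA1 and large partners that target them, among them BPTF of the NURF complex. Of the 7, BPTF was higher, BAZ2A and SMARCA1 were lower and 4 were not called. That is 14.3% higher and 28.6% lower, against 25.4% and 26.9% of all genes tested. BAZ2A, the partner of SMARCA5 in the nucleolar complex NoRC, is at chr12:56595596-56636816 (ENSG00000076108.11). It measured 196, 192 and 187 CPM in DMSO and 99.4, 78.2 and 82.6 CPM in auxin. The groups did not overlap and expression was 2.21-fold lower (log2 fold change -1.14, SE 0.10, adjusted p = 7.26e-05). BPTF (chr17:67825524-67984378, ENSG00000171634.17) measured 219, 229.7 and 226 CPM in DMSO and 259.7, 276 and 278 CPM in auxin. All auxin libraries were higher (log2 fold change 0.27, SE 0.06, adjusted p = 0.00641). On log2(TPM + 0.1), BPTF missed the threshold (limma, adjusted p = 0.424; 5.75e-05 to 0.425 over all alternatives).

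BAZ1B, a SMARCA5 partner in the WICH complex (chr7:73440398-73522278, ENSG00000009954.10), had the highest mean TPM of the ISWI genes, 43.8, followed by BPTF with 42.3. Its CPM values were 237, 257 and 277 in DMSO and 245, 275 and 284 in auxin, with overlapping ranges (log2 fold change 0.06, SE 0.09, adjusted p = 0.588). SMARCA1 fell by 0.27 (SE 0.09, adjusted p = 0.032), a call lost without any of 4 single libraries, auxin replicates 1 and 3 and DMSO replicates 2 and 3. SMARCA5, BAZ1A and BAZ2B were not called, and SMARCA5 was called higher with the replicate block (adjusted p = 0.00589).

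CHD ATPases carry paired chromodomains. CHD3 and CHD4 are the NuRD motors, and MTA, MBD and GATAD2 proteins hold that complex together. Of the 15 genes, 1 was higher, 6 lower and 8 not called, with a median log2 fold change of -0.19. That is 6.67% higher and 40% lower, against 25.4% and 26.9% of all genes tested. MTA1, a NuRD scaffold that recruits histone deacetylases, is at chr14:105419820-105470729 (ENSG00000182979.17). It measured 89.5, 80.2 and 81.1 CPM in DMSO and 24.1, 18.5 and 19.2 CPM in auxin. The groups were well separated (log2 fold change -2.02, SE 0.11, adjusted p = 1.32e-05). In TPM the MTA1 decrease was smaller, from 37.3 ± 11.1 (SD, n = 3) to 13.2 ± 4.63. MTA2 fell by 0.85 (SE 0.06) and MTA3 was not called.

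CHD4, the main NuRD ATPase (chr12:6570082-6614524, ENSG00000111642.15), had the highest mean TPM of the family, 92.9. It measured 443, 477 and 493 CPM in DMSO and 258, 269.8 and 271 CPM in auxin. All auxin libraries were lower, by 1.77-fold (log2 fold change -0.82, SE 0.07, adjusted p = 6.05e-05). CHD3 fell by 0.40 (SE 0.10) and CHD6 by 0.28 (SE 0.07; adjusted p = 0.0644 without auxin replicate 3). CHD8, an ATPase that binds active promoters, is at chr14:21385194-21456126 (ENSG00000100888.13) and measured 103, 99.6 and 103 CPM in DMSO. It measured 38.6, 36.2 and 38.4 CPM in auxin (log2 fold change -1.43, SE 0.05, adjusted p = 2.72e-06). CHD7, a relative of CHD8, was the only CHD or NuRD gene called higher (0.42, SE 0.05, adjusted p = 0.000507). CHD1, CHD2, CHD9, MBD2, MBD3, GATAD2A and GATAD2B were not called. MBD3 had the widest error of the family, 0.31, with CPM of 19.3 ± 7.10 in DMSO and 16.0 ± 5.52 in auxin. With the block, CHD1 (adjusted p = 0.0116), MBD2 (0.000678) and MBD3 (0.000419) were called lower and CHD2 (0.00302), MTA3 (0.0106) and GATAD2A (0.0132) higher.

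In the INO80 and SRCAP group, 5 of 9 genes were higher, 3 lower and 1 not called. That is 55.6% and 33.3%, against 25.4% and 26.9% of all genes tested. The median log2 fold change was 0.36, against 0.02 over all genes tested. RUVBL1 and RUVBL2, AAA+ ATPases that assemble into a common ring, moved in opposite directions. RUVBL1 (chr3:128064778-128153914, ENSG00000175792.11) had the highest mean TPM of the group, 71.1. It measured 76.1, 100.2 and 109.9 CPM in DMSO and 115, 153 and 159.7 CPM in auxin. Each auxin library was above every DMSO library (log2 fold change 0.58, SE 0.17, adjusted p = 0.023), but the call was lost without auxin replicate 2 or 3 or DMSO replicate 2 (adjusted p 0.0735, 0.0801 and 0.0567; 5.22e-07 to 0.0801 over all alternatives). RUVBL2 fell by 0.89 (SE 0.06, adjusted p = 2.29e-05). The ATPases also divided. EP400 (chr12:131949920-132081102, ENSG00000183495.13) measured 150.1, 113 and 116 CPM in DMSO and 70.5, 56.4 and 58.1 CPM in auxin (log2 fold change -1.03, SE 0.14, adjusted p = 0.000633). INO80 rose by 0.39 (SE 0.05, adjusted p = 0.000513) and SRCAP by 0.36 (SE 0.08, adjusted p = 0.00603). Of the INO80 subunits, INO80C rose by 0.66 (SE 0.09) and INO80B by 0.55 (SE 0.10), and INO80E fell by 0.68 (SE 0.14). YEATS4, a histone reader of the SRCAP complex, was not called (with the block, adjusted p = 0.0199, lower).

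Some members overlap other genes, and whether counting used the strand is not given in the sources used here, so reads of overlapping genes may be shared. SRCAP shares 37343 bases on its own strand with AC106886.5, which measured 36.2 CPM in DMSO and 41.5 in auxin. MBD3 shares 14463 bases with AC005943.1 on its own strand (5.08 and 1.88 CPM). RUVBL1 shares 6906 bases with SEC61A1 on the opposite strand (427 and 410.2 CPM). SMARCC2 shares 514 bases with MYL6 on the opposite strand, which was at 142 and 107 CPM. SMARCC2 also lies within AC073896.4 on its own strand (0.212 and 0.039 CPM). The part of these overlaps in the members' values was not tested.

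Levels of related genes were compared as TPM ratios in each library for 22 pairs of members. The groups did not overlap for 14 pairs, each with the smallest p that 20 assignments allow (two-sided exact permutation test, p = 0.1, 0.157 after adjustment over the 22 pairs), so no pair could pass 0.05. How often ratios of other gene pairs separate was not measured, so the count of pairs has no background beside it. For the pair SMARCC1/SMARCC2 the ratio was 3.10, 4.52 and 5.06 in DMSO and 12.7, 24.1 and 27.0 in auxin. Most of the SMARCC1 TPM lay in processed transcripts, so these ratios do not compare the coding forms of the pair. The log2 change of the ratio was 2.29 in TPM and 3.05 in expected counts. SMARCD1/SMARCD2 went from 0.458, 0.451 and 0.495 to 1.73, 1.76 and 1.87, which exchanged the order of these paralogs in all 3 replicates. RUVBL2/RUVBL1 also exchanged order, from 1.58, 1.31 and 1.25 to 0.625, 0.508 and 0.513. CHD8 was near CHD7 in DMSO, at ratios of 0.775, 0.860 and 0.911, and well below it in auxin, at 0.227, 0.248 and 0.223. DPF2/DPF1 went from 8.61, 14.9 and 11.8 to 68.5, 78.7 and 88.3. For the ATPases, SMARCA4/SMARCA2 went from 3.56, 4.36 and 4.21 to 8.69, 10.5 and 11.4, and SMARCA5/SMARCA1 from 2.22, 2.06 and 2.197 to 2.84, 2.79 and 2.82. Ratios that kept overlapping ranges included ARID1A/ARID1B (1.77 ± 0.299 and 1.80 ± 0.256; SD, n = 3) and BAZ1B/BAZ1A (1.29 ± 0.0286 and 1.32 ± 0.0911). The log2 change of ARID1A/ARID1B was 0.03 in TPM but -0.45 in expected counts, against 0.03 and 0.04 for BAZ1B/BAZ1A. The forms of ARID1A and ARID1B with the highest TPM have 699 and 318 bases, so their TPM ratio need not follow the coding forms.

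**Figure D3:**
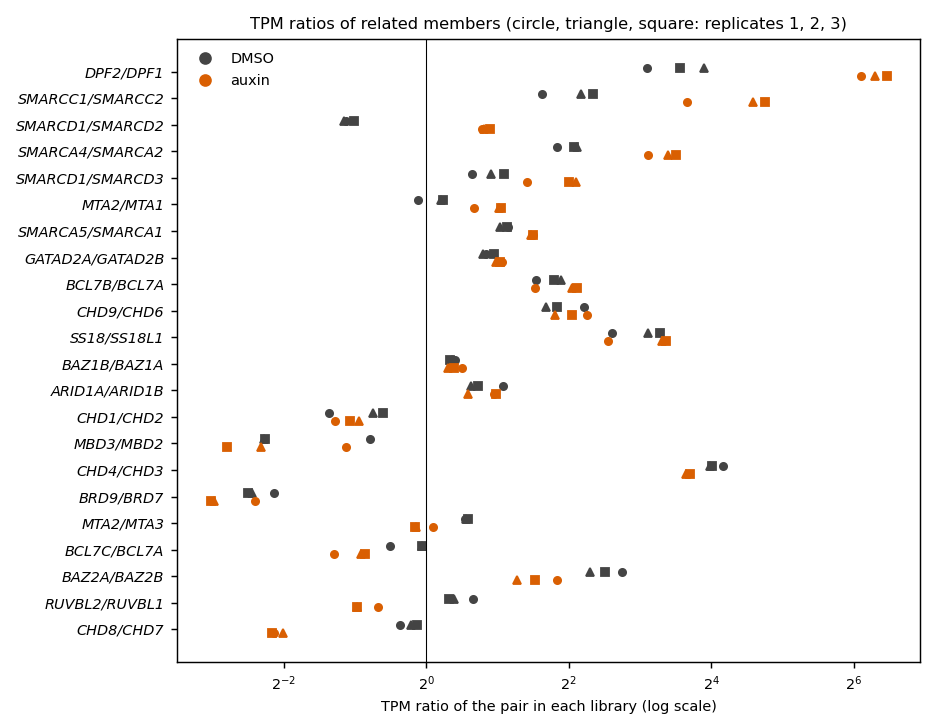
TPM ratio of 22 pairs of related members in each library, on a log2 axis, ordered by the change from DMSO (grey) to auxin (orange); symbols are replicates. SMARCD1/SMARCD2 crosses 1 from left to right, from 0.451 to 0.495 up to 1.73 to 1.87, and RUVBL2/RUVBL1 crosses in the other direction.

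Isoforms were followed as the share of a gene's TPM that each annotated transcript took. Of 568 member transcripts tested, 43 had a higher share after auxin and 20 a lower share (edgeR quasi-likelihood test with the gene's count as offset, Benjamini-Hochberg over 75521 transcripts, as for each adjusted p on a share below). These were 7.57% and 3.52% of the members' transcripts, against 6.24% and 3.64% of all transcripts, and they came from 29 of the 55 genes. Leaving out single libraries took the higher calls to between 17 (without DMSO replicate 2 or DMSO replicate 3) and 36, and the lower calls to between 3 (without DMSO replicate 2) and 16. Without auxin replicate 1, 2 or 3 the higher calls were 26, 23 and 24. The lower calls were 12 and 10 without auxin replicates 2 and 3, and 8 and 5 without DMSO replicates 1 and 3. Shares over all transcripts in these fits are not given here, so these counts have no background beside them. Of retained-intron transcripts, 20 of 162 had a higher share and 1 a lower share, or 12.3% and 0.617%, against 12.2% and 1.15% of retained-intron transcripts of all genes.

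The exons below were printed because their inclusion, summed over annotated transcripts, differed between the groups. They are the coding exons of members whose inclusion differed by at least 20 percentage points without overlap between the groups, and those of BPTF that differed by at least 10, a choice made after the values were seen. Inclusion is the TPM of transcripts with the exon over the TPM of those with or without it. Capitals mark the exon, and lower case marks 12 bases of the neighbouring exons as spliced, 5′ to 3′ in the sense of the gene, from GENCODE release 29 transcripts on GRCh38.
SMARCD2, 123 bases, chr17:63833298-63833420, minus strand: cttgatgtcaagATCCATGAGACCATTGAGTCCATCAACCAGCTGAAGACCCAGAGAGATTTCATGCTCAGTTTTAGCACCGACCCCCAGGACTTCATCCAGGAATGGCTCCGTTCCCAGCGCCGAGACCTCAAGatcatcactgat
MTA1, 75 bases, chr14:105463184-105463258, plus strand: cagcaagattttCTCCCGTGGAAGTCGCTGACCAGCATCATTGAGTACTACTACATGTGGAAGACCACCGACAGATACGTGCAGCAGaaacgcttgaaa
SMARCC2, 70 bases, chr12:56183861-56183930, minus strand: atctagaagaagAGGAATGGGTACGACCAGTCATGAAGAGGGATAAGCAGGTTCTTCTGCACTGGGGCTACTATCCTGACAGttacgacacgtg
SMARCA4, 102 bases, chr19:11058788-11058889, plus strand: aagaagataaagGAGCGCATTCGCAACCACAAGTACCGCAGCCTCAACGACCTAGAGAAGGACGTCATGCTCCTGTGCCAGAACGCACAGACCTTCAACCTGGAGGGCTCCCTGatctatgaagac
SMARCA1, 36 bases, chrX:129493040-129493075, minus strand: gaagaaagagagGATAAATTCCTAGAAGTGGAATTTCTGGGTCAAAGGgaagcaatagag
BPTF, 189 bases, chr17:67875556-67875744, plus strand: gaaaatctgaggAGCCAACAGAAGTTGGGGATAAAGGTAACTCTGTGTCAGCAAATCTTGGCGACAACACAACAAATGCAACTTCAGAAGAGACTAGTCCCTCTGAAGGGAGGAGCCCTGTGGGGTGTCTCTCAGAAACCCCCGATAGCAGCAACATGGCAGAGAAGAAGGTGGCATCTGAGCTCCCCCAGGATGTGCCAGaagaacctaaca
BPTF, 189 bases, chr17:67886128-67886316, plus strand: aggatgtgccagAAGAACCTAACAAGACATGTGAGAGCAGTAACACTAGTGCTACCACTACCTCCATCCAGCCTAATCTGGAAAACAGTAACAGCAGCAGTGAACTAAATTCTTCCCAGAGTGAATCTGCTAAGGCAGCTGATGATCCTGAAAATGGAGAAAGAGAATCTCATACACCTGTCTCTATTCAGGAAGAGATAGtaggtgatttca
BPTF, 162 bases, chr17:67928959-67929120, plus strand: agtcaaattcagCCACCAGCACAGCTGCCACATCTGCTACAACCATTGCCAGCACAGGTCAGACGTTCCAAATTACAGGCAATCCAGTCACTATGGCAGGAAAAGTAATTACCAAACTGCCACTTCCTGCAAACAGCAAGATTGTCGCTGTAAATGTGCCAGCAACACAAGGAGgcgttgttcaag

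Inclusion of the SMARCD2 exon was 92.3%, 93.1% and 92.0% in DMSO and 49.1%, 50.5% and 52.2% in auxin. The MTA1 exon was at 99.6%, 99.7% and 100% in DMSO and 66.8%, 66.7% and 67.8% in auxin. The SMARCC2 exon, whose length is not a multiple of 3, was at 91.3%, 91.3% and 95.7% in DMSO and 72.2%, 61.3% and 68.0% in auxin. All 3 genes also fell in total expression. The SMARCA4 exon went from 98.8%, 95.7% and 96.9% to 79.2%, 70.9% and 71.3%. The short SMARCA1 exon moved the other way, from 35.3%, 40.5% and 44.7% to 53.7%, 57.8% and 70.3%. For these SMARCA4 and SMARCA1 exons, no single transcript that includes or skips the exon passed the test of its share (adjusted p of at least 0.0896 and 0.104). In BPTF, all 3 exons were included more often after auxin, from 63.1% ± 4.18 to 78.0% ± 3.67 for the first, 68.4% ± 3.50 to 80.9% ± 3.17 for the second and 16.4% ± 2.08 to 28.2% ± 2.87 for the third (SD, n = 3). Over the members, 270 exons of 47 genes could be skipped and had a summed TPM of at least 1 in every library. By the 10-point rule, 4 were included more often and 9 less often, or 1.48% and 3.33%, against 1.48% and 3.99% of all 29188 such exons. These values rest on how reads were assigned to annotated transcripts, and reads across splice junctions were not analysed here. Most skipping of the SMARCC2 exon lay in a transcript annotated as processed, without coding sequence. Its mean share went from 5.61% to 23.9% of SMARCC2, while the mean TPM of the gene went from 32.6 to 7.94. The skipping forms of SMARCD2 and MTA1 are a single annotated transcript each. That of MTA1, MTA1-217, is annotated as a processed transcript without coding sequence, and its share went from 0.236% to 25.8% of MTA1 (adjusted p = 0.0156; named after its values were seen). With the replicate block its adjusted p was 0.0502, and the call was also lost without auxin replicate 2 (0.0517), auxin replicate 3 (0.0502) or DMSO replicate 2 (0.0795).

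Transcripts are named as in GENCODE. SMARCD2-204, with 7 exons and without the 123-base exon, took 7.50%, 6.80% and 7.80% of SMARCD2 in DMSO and 46.2%, 46.8% and 45.6% in auxin (adjusted p = 0.000686). Its own TPM was 3.52 ± 0.951 in DMSO and 5.16 ± 0.665 in auxin, so the gene's decrease lay in the long forms. SMARCD2-201, with 13 exons, went from 51.2%, 43.7% and 38.2% to 5.37%, 6.21% and 11.7% (adjusted p = 0.0201; 0.0652 with the replicate block). That call was also lost without any single library other than auxin replicate 3. SMARCD2-212, with 14 exons, overlapped between the groups in share (42.1% ± 8.44 and 36.6% ± 2.48; adjusted p = 0.605), and its TPM was 19.4 ± 1.13 in DMSO and 4.08 ± 0.342 in auxin.

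BPTF spreads over 8 transcripts with at least 5% of its TPM in a group, and its changes in share were smaller. BPTF-201, which skips both 189-base exons, went from 19.5%, 15.6% and 16.96% to 10.2%, 7.25% and 8.46% (adjusted p = 0.0293). BPTF-216, a short model with the 162-base exon, went from 11.9%, 10.5% and 9.15% to 21.9%, 16.9% and 18.4% (adjusted p = 0.0261). Both calls were lost without any of several single libraries. BPTF-201 was not called without auxin replicate 2 or 3 or any DMSO replicate, and BPTF-216 was not called without any auxin replicate or without DMSO replicate 2 or 3. BPTF-219 was at 0% in all DMSO libraries, where 3 counts of the gene's total allow up to 0.00116%, and at 6.18%, 6.04% and 6.15% in auxin (adjusted p = 0.000674). The main form BPTF-204 was at 29.9% ± 0.502 and 25.5% ± 1.51 (adjusted p = 0.0953). BPTF-205, BPTF-206, BPTF-213 and BPTF-214 overlapped between the groups, with adjusted p from 0.526 to 0.746.

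Of the other members, the 5 called transcripts with the largest changes in share belonged to DPF1, SMARCC2, INO80E and BCL7C. DPF1-206 went from 11.4%, 18.7% and 15.3% to 46.2%, 48.8% and 48.7% (adjusted p = 0.00772). These shares rest on little RNA, as DPF1 was at 4.37, 1.65 and 2.21 TPM in DMSO and 0.66, 0.40 and 0.40 TPM in auxin. The auxin values lie under the 1 TPM required for the exon and retained-intron values. SMARCC2-201, the long form with 28 exons, went from 50.6%, 46.8% and 53.2% to 17.5%, 19.7% and 19.1% (adjusted p = 0.00194). INO80E-212, a retained-intron form, rose from 11.97%, 16.4% and 17.8% to 38.6%, 48.0% and 45.5% (adjusted p = 0.0102), while the coding INO80E-209 fell from 49.5% ± 5.403 to 23.3% ± 5.42 (adjusted p = 0.043). BCL7C-203 rose from 47.5% ± 3.55 to 73.9% ± 2.33 (adjusted p = 0.0103). The INO80E-209 call was lost without auxin replicate 2 or 3 or any DMSO replicate, BCL7C-203 without DMSO replicate 2 or 3, INO80E-212 without DMSO replicate 2 and DPF1-206 without replicate 1 of both groups.

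**Figure D4:**
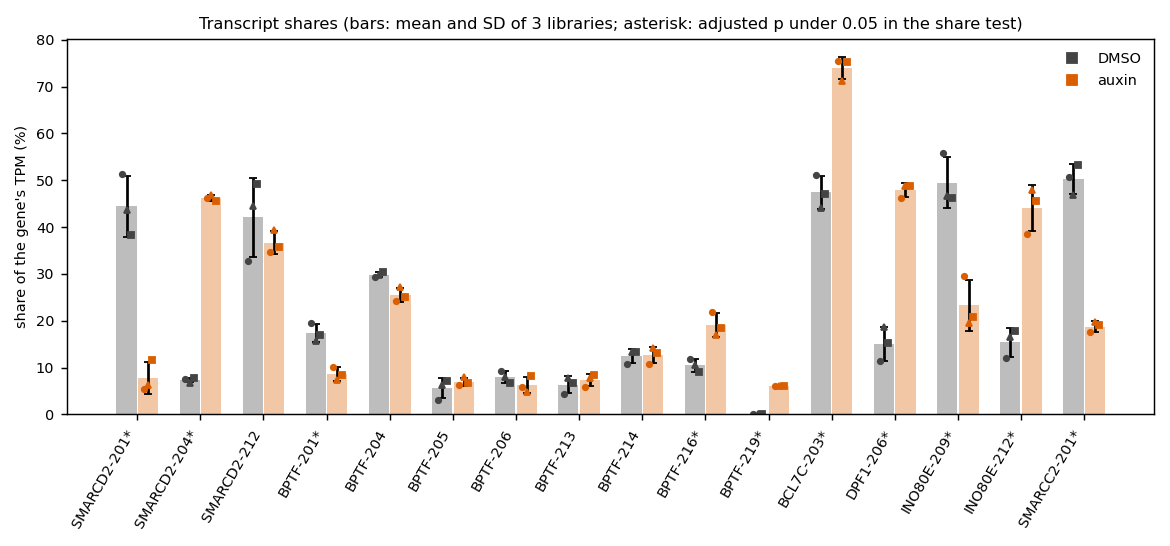
Share of the gene's TPM, in percent, of the named transcripts of SMARCD2, BPTF and the other members; bars and error bars are the mean and SD of 3 libraries, symbols are replicates, and an asterisk marks an adjusted p under 0.05. SMARCD2-204 rises from under 8% to above 45% while SMARCD2-201 falls below 12%.

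Retained-intron transcripts are annotated forms that keep an intron and carry no coding sequence in the annotation. Their summed share of the gene was higher after auxin, without overlap between the groups, for 13 of the 49 members with such a transcript and a gene TPM of at least 1 in every library, and lower for 2. That is 26.5% and 4.08% of members, against 19.7% and 7.41% of 6141 genes measured in the same way. Of the 13 genes, 11 were among the members that had fallen, SMARCC2, SMARCD2, SMARCD3, BAZ2A, CHD4, CHD8, MTA1, MTA2, EP400, RUVBL2 and INO80E. The others were SMARCC1 and MBD3. The share was 15.3%, 11.0% and 8.82% in DMSO and 47.9%, 38.3% and 39.2% in auxin for SMARCC2. In MTA2 it went from 11.6%, 16.0% and 13.0% to 34.9%, 32.2% and 32.6%. In SMARCD3 it went from 8.26% ± 1.83 to 28.1% ± 7.32, and in RUVBL2 from 9.42% ± 6.49 to 22.3% ± 5.02 (SD, n = 3). ARID1B, which was not called as a gene, went down from 51.5% ± 2.43 to 38.8% ± 2.25, and SMARCE1 from 3.42% to 2.48%. Over all genes, 40.7% of those called lower and 4.75% of those called higher had a higher retained-intron share without overlap. Among the members the counts were 11 of 16 and 1 of 14.

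**Figure D5:**
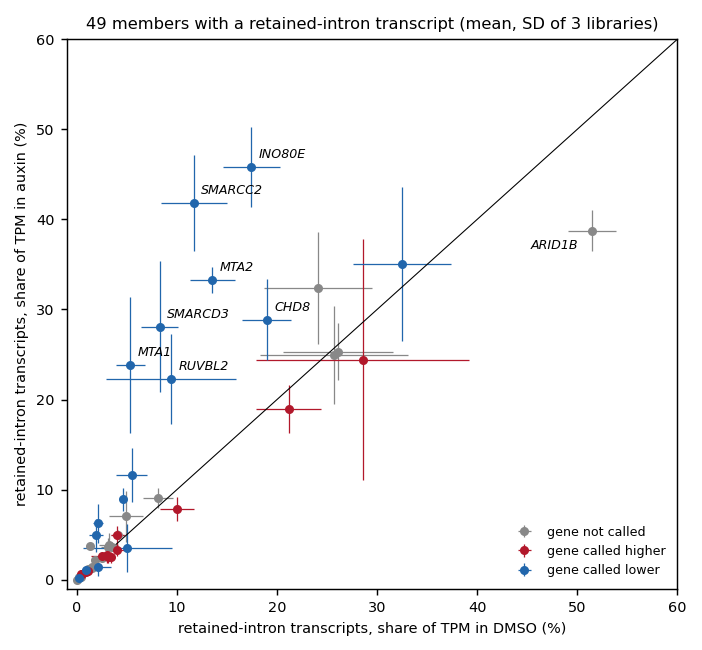
Share of the gene's TPM held by retained-intron transcripts in DMSO (horizontal) and auxin (vertical), in percent, for 49 members; points and bars are the mean and SD of 3 libraries, coloured by the gene's call. INO80E, SMARCC2, MTA2, SMARCD3, MTA1, RUVBL2 and CHD8 lie above the diagonal, and ARID1B lies below it.

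The members that fell were shorter and had a higher GC content than those that rose. Median gene length was 42832 bases for the 20 lower genes and 70108 bases for the 14 higher genes, and the median GC content of the main transcript was 54.96% and 50.5%. The main transcript, from which exon number was also taken, is the annotated form with the highest mean TPM. For some members it is a short form, of 412 bases in SMARCC1 and 318 bases in ARID1B. Among protein-coding genes tested the medians ran in the same direction, 23148 against 42444 bases and 55.9% against 46.4%. Across the 55 members, Pearson's r of log2 fold change was 0.27 with log10 gene length, -0.19 with exon number and -0.36 with GC content. Across 14154 protein-coding genes, or 14145 with a GC value, r was 0.22, -0.08 and -0.40. Genes are not independent replicates and share the same 6 libraries, so these values are descriptions.

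A further list of 54 genes, other subunits of these complexes and other Snf2-type ATPases, was read beside the members. Of 53 tested, all but ACTL6B, 13 were higher and 18 lower, or 24.5% and 34.0%, against 25.4% and 26.9% of all genes, with a median log2 fold change of -0.05. With the replicate block 18 were higher and 23 lower, with 35.5% and 34.4% of all genes. With upper-quartile factors the counts were 18 and 16, with 33.1% and 22.4% of all genes. None of the 8 further ISWI-associated genes rose and 5 fell, among them RBBP7 (-0.50, SE 0.06), a histone chaperone also found in NuRD. With the block RBBP4 and POLE3 were also called lower, and CHRAC1 lost its call with upper-quartile factors. The NuRD deacetylase HDAC1 fell by 0.51 (SE 0.07, adjusted p = 0.000627), while HDAC2 was not called (called higher with the block and with upper-quartile factors). In the INO80, SRCAP and TIP60 set, 6 of 23 rose and 5 fell, or 26.1% and 21.7%, near the shares over all genes. MCRS1, an INO80 subunit, fell from 29.9 ± 3.35 CPM to 2.38 ± 0.55 (SD, n = 3; log2 fold change -3.64, SE 0.18). KAT5, the acetyltransferase of the TIP60 complex that also contains EP400, fell by 1.02 (SE 0.09) and its partner DMAP1 by 1.27 (SE 0.22), while EPC1 rose by 0.74 (SE 0.06). These genes were named after their values were seen.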

How the data were processed

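RNA was measured in 6 HCT116 libraries, 3 per group. Per the labels' protocols, ribosomal RNA was depleted and stranded libraries were sequenced paired-end. Per the submitters' processing notes, bcl2fastq 2.20, STAR and DESeq2 were named, with build GRCh38; their settings, the counting tool and its use of the strand are not given in the sources used here. The authors deposited, per the file headers, an expected count (an estimated number of reads, not normalized), TPM and a posterior SD of the count for each gene and transcript. A posterior SD is a deposited value of another kind and measures uncertainty of assignment only. For members it was at most 0.854% of the gene's count.

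Expected counts were rounded and tested with edgeR 4.0.16 (R 4.3.3) after filterByExpr and TMM scaling, without a block; standard errors were computed from its F statistic. Rows that name no gene, at most 0.00111% of a library, were left out. Transcripts of genes with at least 50 counts in every library were tested with the gene's count as offset. Alternatives used limma 3.58.1, DESeq2 1.42.0, other filters and scalings, and subsets of the libraries. Both tests were also run on counts simulated with a fixed dispersion. That simulation held no replicate effect on the tested values and no error in assigning reads to transcripts, so it does not cover these. The labels call the replicates biological but do not say that a number marks a shared day; same-numbered libraries of the groups correlated in their deviations at 0.65, 0.27 and 0.28, all above 0.1, and were treated as pairs in an alternative fit. DMSO replicate 3 correlated more with auxin replicate 2 (0.31) than with auxin replicate 3, so replicates 2 and 3 were not told apart by their number.

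The members, gene lists and rules were chosen with earlier results of these data known. All members are named; values per library are given for called members with a change of at least 2-fold, BPTF, SMARCD2 and the most abundant member of each family. Transcripts named are those of BPTF and SMARCD2 with a share of at least 5% in a group, and the 5 largest called changes in other members; MTA1-217 was added for the printed MTA1 exon after its values were seen.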

Additional observations from a re-analysis of the deposited data

How the results depend on the processing

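Limma on log2(TPM + 0.1) and log2(TPM + 1) called 1 and 1 members higher and 12 and 9 lower, and kept 13 calls under the first of these. Over single libraries left out, members higher ranged from 10 to 13 and members lower from 17 to 20. In the same fits, 19.2% to 24.9% of all genes tested were higher and 22.2% to 27.9% lower. Member transcripts with a higher share ranged from 17 to 36 and with a lower share from 3 to 16. Shares over all transcripts in the alternative fits are not given here. Replicates 2 and 3 alone gave 11 transcripts with a lower share, and limma on log2 TPM shares gave 76 with a higher share. With the replicate number as a block, members higher and lower were 20 and 28, and member transcripts 42 and 18; it added 14 member calls, removed none, and among the named transcripts ended the calls of SMARCD2-201 and MTA1-217 and changed no other. Over all genes, the block gave 7005 higher and 6789 lower against 5010 and 5311, upper-quartile factors 6534 and 4416, and limma on log2(TPM + 1) 970 and 2966. Ratios of expected counts separated 16 pairs, against 14 for TPM. No called result was reversed by any alternative. The causes of these differences were not tested. With 3 libraries per group, permutation tests of single values cannot pass 0.05, and transcript values depend on the annotation used for counting.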
